A study of Mus musculus with 12 samples.

Results

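Ribosome biogenesis and nucleolar genes were followed in 4 sorted populations of mouse blood cells, on 12 Affymetrix arrays hybridised with total RNA. A list of 39 genes was set, and each gene was read from the probe set that names it alone and has the highest mean over the arrays. That gave values for 38 of the 39 genes, out of 18193 genes read in the same way. Npm3, a nucleolar histone chaperone, was not analysed here because no probe set names it alone. The populations were splenic CD4+ T cells (CD4+ CD8- B220- Nk1.1-, 2 arrays), PreMegE progenitors, which lead to megakaryocytes and red cells (lineage- cKit+ Sca1- CD150+ CD105- CD41-, 4 arrays), multipotent progenitors or MPP (lineage- cKit+ Sca1+ CD150- Flt3+, 3 arrays) and haematopoietic stem cells or HSC (lineage- cKit+ Sca1+ CD150+ Flt3-, 3 arrays). The last 3 came from bone marrow, and every group was taken from C57Bl/6 mice aged 10 to 12 weeks with no treatment or engineered allele in the labels. The study sorted HSC and MPP itself and took PreMegE and CD4+ T cells from 2 earlier ones, so study and population cannot be told apart in any comparison that involves either of those.

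A ribosome is built mostly in the nucleolus. RNA polymerase I transcribes the precursor of the ribosomal RNAs, and small nucleolar ribonucleoproteins (snoRNPs) guide its chemical modification: box C/D particles methylate ribose, and box H/ACA particles turn uridine into pseudouridine. Separate sets of factors then cut, fold and assemble the precursors of the small and the large subunit before these leave the nucleus. In blood formation this machinery is known for rising with cell growth and division, and its genes are classical targets of the transcription factor MYC.

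MYC binds the E-box CACGTG, so the start-site windows of the listed genes were read for these letters, which are their own reverse complement. RefSeq promoters (assembly GRCm38.p6, 250 bases before to 50 after each start) were at hand for 34 of the 39 genes. The E-box was present in 6 of the 34 (17.6%): Mybbp1a, Pno1, Wdr43, Pes1, Utp20 and Nop2. Over all 27025 genes with such a window it was present in 2187 (8.09%). A match is a description of these letters and not evidence of binding. The 4 windows below belong to the carriers with the largest differences between populations, are written 5′ to 3′ on the gene's strand, and have the E-box in capitals.
Mybbp1a, chr11:72441077-72441376, + strand: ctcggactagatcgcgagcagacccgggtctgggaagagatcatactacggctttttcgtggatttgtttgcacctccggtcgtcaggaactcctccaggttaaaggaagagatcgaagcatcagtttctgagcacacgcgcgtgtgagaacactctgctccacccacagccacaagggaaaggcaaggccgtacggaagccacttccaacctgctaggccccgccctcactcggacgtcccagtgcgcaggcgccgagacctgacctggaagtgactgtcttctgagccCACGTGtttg
Pno1, chr11:17211540-17211839, - strand: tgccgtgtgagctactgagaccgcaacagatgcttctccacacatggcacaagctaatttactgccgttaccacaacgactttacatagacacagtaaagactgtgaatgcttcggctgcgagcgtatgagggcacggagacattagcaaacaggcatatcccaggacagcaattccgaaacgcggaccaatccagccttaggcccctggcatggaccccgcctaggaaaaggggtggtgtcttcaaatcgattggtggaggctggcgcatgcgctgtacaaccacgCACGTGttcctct
Wdr43, chr17:71615965-71616264, + strand: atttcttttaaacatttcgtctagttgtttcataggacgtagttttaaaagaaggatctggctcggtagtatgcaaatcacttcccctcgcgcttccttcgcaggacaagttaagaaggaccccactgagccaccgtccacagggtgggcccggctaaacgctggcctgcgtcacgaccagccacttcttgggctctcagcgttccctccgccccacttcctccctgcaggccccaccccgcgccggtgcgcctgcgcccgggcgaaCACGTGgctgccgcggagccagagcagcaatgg
Pes1, chr11:3963725-3964024, + strand: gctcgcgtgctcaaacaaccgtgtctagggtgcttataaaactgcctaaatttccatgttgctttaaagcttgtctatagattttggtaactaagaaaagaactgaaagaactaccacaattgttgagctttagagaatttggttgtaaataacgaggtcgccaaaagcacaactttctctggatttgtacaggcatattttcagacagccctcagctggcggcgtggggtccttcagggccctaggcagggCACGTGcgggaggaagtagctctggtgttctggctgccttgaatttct

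In these windows the E-box begins 40 bases after the start in Mybbp1a, 37 in Pno1, 17 in Wdr43 and 2 in Pes1. The 4 carriers did not share a pattern across the populations: the highest mean was in PreMegE for Mybbp1a and Wdr43, in MPP for Pno1 and in CD4+ T cells for Pes1.

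Values below are log2 of the deposited intensity, a difference is the mean of the first-named population minus that of the second, and a gene was called at a limma adjusted p under 0.05 over all 18193 genes. Arrays are scaled to one another, so a value is relative to the other transcripts of the same array and the RNA content per cell was not measured; fewer cells of a type and less RNA per cell cannot be told apart. Probe sets hybridise unequally, so levels are compared between populations and not between genes. Nothing in the labels says that replicates came from separate animals, so p-values cover only the spread among these 12 arrays, which may be technical.

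The summed intensity of 5 measured T cell genes was 5412 to 5665 in CD4+ T cells and 173 to 261 on all marrow arrays. That of 4 MPP genes was 2439 to 2582 in CD4+ T cells, 186 to 249 in PreMegE, 9318 to 9684 in MPP and 1209 to 1280 in HSC. Of these, Flt3, Dntt and Cd34 were highest in MPP. Satb1 was higher in CD4+ T cells, at 11.14 and 11.20, than in MPP, at 9.77 to 9.82. The 6 PreMegE genes summed to 4861 to 7530 in PreMegE, against 554 to 639 in MPP, but to 4648 to 5144 in HSC, so the sum did not separate PreMegE from HSC. Its genes went both ways. Gata1, Klf1, Epor and Zfpm1 were higher on every PreMegE array than on every HSC array, and Itga2b and Pf4 were lower. Klf1 was 11.03 to 11.79 in PreMegE and 7.65 to 8.03 in HSC, and Pf4 was 6.41 to 6.99 and 10.64 to 11.09. The 5 HSC genes summed to 183 to 203 in CD4+ T cells, 247 to 342 in PreMegE, 2131 to 2360 in MPP and 3021 to 3305 in HSC. On that sum MPP lay closer to HSC than to PreMegE, without overlap. Each of the 5 genes was higher on every HSC array than on every MPP array, with Slamf1 at 6.67 to 7.05 against 3.53 to 3.86. Slamf1 did not set HSC apart from the other populations. It was 7.25 and 7.07 in CD4+ T cells, above every HSC array, and 6.58 to 7.02 in PreMegE. Tek also overlapped, at 6.25 to 7.11 in PreMegE and 6.97 to 7.65 in HSC. Mecom, Hlf and Procr were highest in HSC on every array. The sums of some genes of other cell types were also higher in CD4+ T cells. Mature erythroid genes (3 measured) summed to 249 to 1037 in CD4+ T cells and 24.7 to 177 on the marrow arrays. B cell genes (4) summed to 266 to 285 and 56.9 to 106, and NK and cytotoxic genes (7) to 495 to 692 and 80.9 to 110.5, in the same order. Further readings differed between arrays, in part with the population. The actin control, 3′ over 5′ signal on the log2 scale, was 0.99 to 1.13 in CD4+ T cells, 3.49 to 4.65 in PreMegE, 2.35 to 2.68 in MPP and 2.42 to 2.77 in HSC. The GAPDH control, read the same way, was 2.55 to 2.66, 3.12 to 4.39, 3.62 to 3.88 and 3.86 to 4.14 in the same order. In it PreMegE overlapped both HSC and MPP. Mature neutrophil genes (6 measured) summed to 81.5 to 133 in CD4+ T cells, 603 to 2376 in PreMegE, 119 to 273 in MPP and 423 to 4055 in HSC. The HSC sum was 4055 on replicate 2 but 503 and 423 on replicates 1 and 3, so it spanned the PreMegE range. Immediate early genes (12 measured) summed to 3375 to 5157, 900.2 to 1269, 27208 to 30098 and 12088 to 18780 in the order CD4+ T cells, PreMegE, MPP and HSC. Xist was 12.04 on HSC replicate 1 but 2.45 and 2.59 on HSC replicates 2 and 3, and 10.91 to 12.44 on the 9 arrays of the other populations. The HSC group thus mixes the sexes, and HSC replicates 2 and 3 differ in this from every other array. The part of these differences in the results below was not tested.

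**Figure D1:**
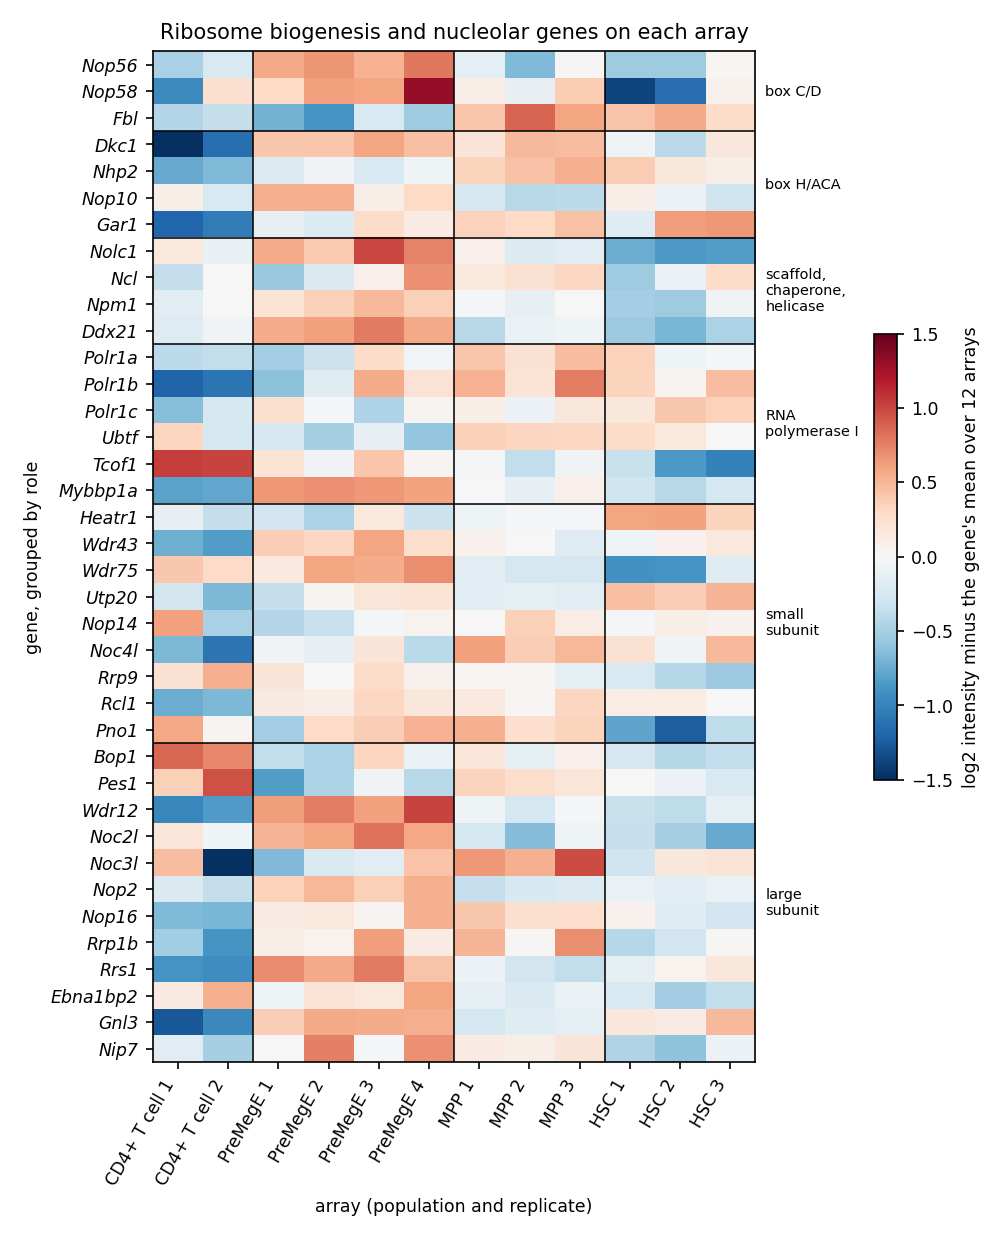
Log2 intensity of each of the 38 measured genes on each array, with genes grouped by role and each row shown as the difference from its own mean over the 12 arrays. Colours stop at a difference of 1.5. All 4 PreMegE arrays lie above the mean for Nop56, Nop58, Dkc1, Npm1, Ddx21, Mybbp1a, Wdr12 and Gnl3, and both CD4+ T cell arrays lie below it for Dkc1, Gar1, Rrs1 and Gnl3.

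All 38 genes lay above the median gene in every population. Shares of all genes given below include dim genes unless said otherwise. Leaving out the dimmest 25 percent of genes raised the share called in every comparison. The mean was highest in PreMegE for 17 of the 38 (44.7%, against 26.9% of all genes), in MPP for 12 (31.6%, against 20.3%), in CD4+ T cells for 5 (13.2%, against 28.4%) and in HSC for 4 (10.5%, against 24.5%). It was lowest in CD4+ T cells for 21 (55.3%, against 36.8% of all genes), in HSC for 12, in PreMegE for 4 and in MPP for 1. The list did not follow one order of the populations: 15 different orders of the 4 means occurred among the 38 genes, and no order was shared by more than 5. Per array, the median over the 38 genes was 8.32 to 8.48 in CD4+ T cells, 8.65 to 9.004 in PreMegE, 8.53 to 8.66 in MPP and 8.16 to 8.53 in HSC. These ranges overlap between all pairs except PreMegE with CD4+ T cells, PreMegE with HSC and MPP with CD4+ T cells.

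**Figure D2:**
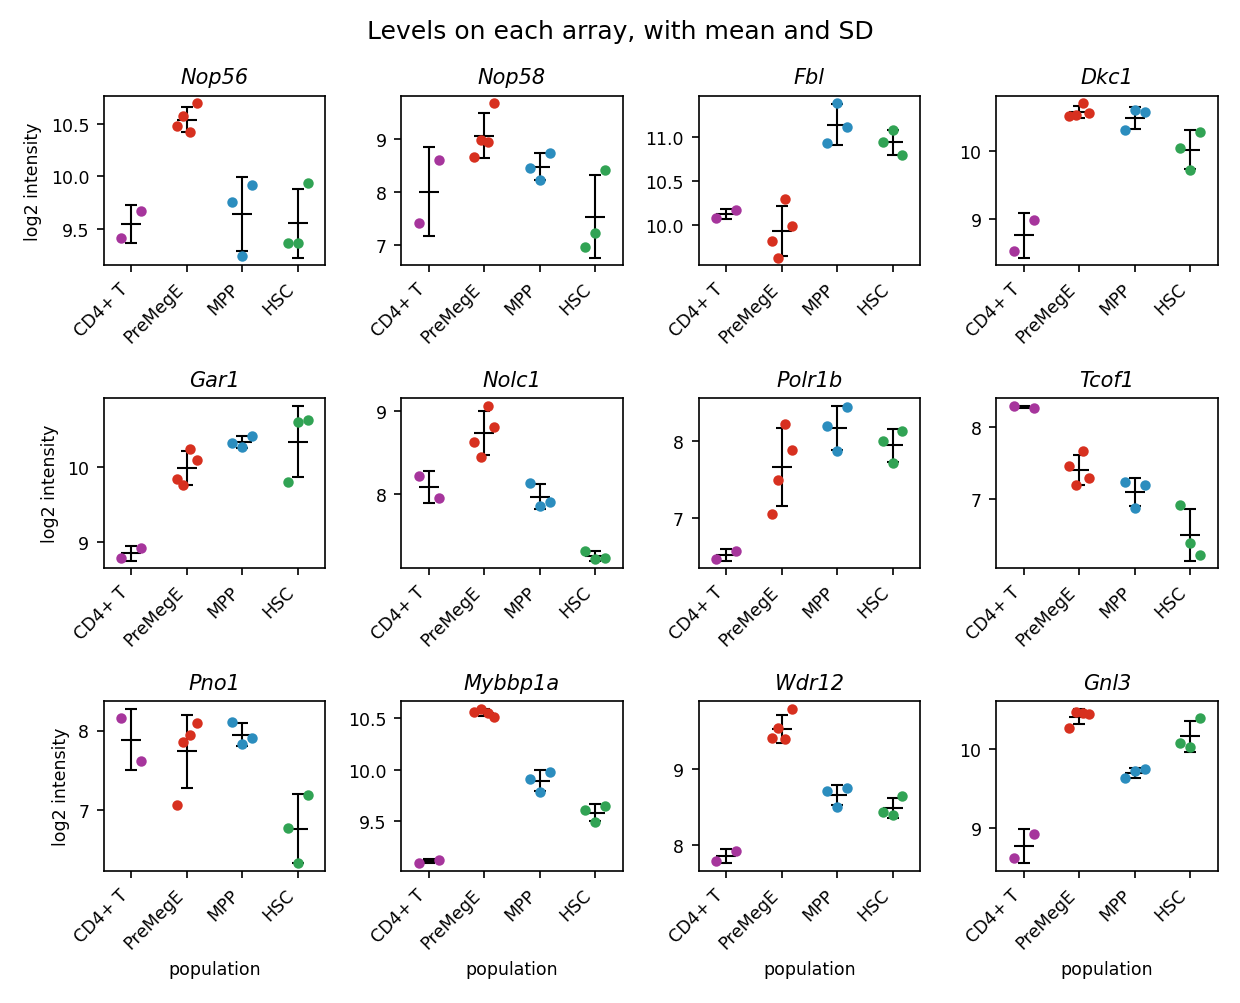
Log2 intensity (vertical axis, a scale of its own for each gene) of 12 of the genes in CD4+ T cells, PreMegE, MPP and HSC. Each point is an array, and the black bars are the mean and SD of the group. Mybbp1a and Wdr12 are highest in PreMegE and lowest in CD4+ T cells, Fbl is lower in CD4+ T cells and PreMegE than in MPP and HSC, and Tcof1 is highest in CD4+ T cells.

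Few single genes were called between MPP and HSC, both sorted by this study, although most differences lay above zero. HSC replicates 2 and 3 lacked Xist, which was present on every MPP array. Of the 38 genes, 2 were called higher and 1 lower in MPP, that is 7.89%, against 11.3% of all genes called in either direction, 6.38% higher and 4.93% lower. The arrays did not overlap for 19 of the 38 genes, against 29.8% of all genes. The called genes were Pno1, which acts late in small subunit maturation (difference 1.18 ± 0.26 (SE, limma adjusted p = 0.00762)), Nolc1, a snoRNP chaperone (0.72 ± 0.17 (SE, limma adjusted p = 0.0112)), and Utp20, a small subunit processing protein (-0.60 ± 0.17 (SE, limma adjusted p = 0.0309)). The difference was positive for 29 of the 38 genes, against 45.8% of all genes, with a median of 0.25, against -0.03 over all genes, and 15 genes had an unadjusted p under 0.05. At least 2-fold, 1 gene was called, against 4.7% of all genes. The counts depended on single arrays: 5 genes were called higher without HSC replicate 3, 4 without PreMegE replicate 3 and 1 without MPP replicate 1. The count of 1 lower gene became 2 without PreMegE replicate 3. The Utp20 call ended without HSC replicate 1 (adjusted p = 0.0768), HSC replicate 2 (adjusted p = 0.0584), HSC replicate 3 (adjusted p = 0.0821), MPP replicate 1 (adjusted p = 0.0936), MPP replicate 2 (adjusted p = 0.0816) and MPP replicate 3 (adjusted p = 0.0971), and the Nolc1 call without MPP replicate 1 (adjusted p = 0.0623).

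PreMegE were higher than HSC for many of the genes. Of the 38, 18 were called higher and 3 lower, against 28.9% of all genes called in either direction, 11.9% higher and 17% lower. Among the called genes the largest rises were in Nop58 (1.53), Nolc1 (1.49), the helicase gene Ddx21 (1.19), Noc2l (1.16), Wdr75 (1.16) and Wdr12 (1.04). The genes called lower were Fbl (-1.01), Heatr1 (-0.74) and Ubtf (-0.51). The median difference was 0.40, against -0.01 over all genes, and 6 genes rose and 1 fell by at least 2-fold, against 11.5% of all genes in either direction. The Ubtf call ended without HSC replicate 1 (adjusted p = 0.112), HSC replicate 2 (adjusted p = 0.0679), PreMegE replicate 2 (adjusted p = 0.0715) and PreMegE replicate 4 (adjusted p = 0.0794). Calls of Nop10, Dkc1, Ebna1bp2 and Nip7 also ended when single arrays were left out, as given below. With HSC replicate 1, the only one with Xist, as the sole HSC array, 10 were called higher, against 6.96% of all genes in that setting.

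Against MPP, PreMegE were called higher for 13 genes and lower for 6 of the 38, against 33% of all genes called in either direction, 13.5% higher and 19.5% lower. Among the called genes the largest rises were in Noc2l (0.96), Nop56 (0.90), Wdr12 (0.87), Rrs1 (0.86), Ddx21 (0.82) and Nolc1 (0.77), and the largest falls in Fbl (-1.22), Pes1 (-0.70), Ubtf (-0.70), Noc4l (-0.59) and Nhp2 (-0.57). Noc3l gave -0.88 (adjusted p = 0.123) and was not called. The median difference was 0.12, against 0.02 over all genes, and was 0.08 without PreMegE replicate 3. The comparison with HSC and the one with MPP share the PreMegE arrays. The Noc4l call ended without MPP replicate 1 (adjusted p = 0.0731), MPP replicate 3 (adjusted p = 0.0517) and PreMegE replicate 4 (adjusted p = 0.0543).

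Read from the brightest probe sets, more of the genes were called lower than higher in CD4+ T cells against each marrow population. Against PreMegE, 21 of the 38 genes were called lower and 3 higher (33.1% of all genes called in either direction, 16.8% lower and 16.3% higher), with a median of -0.60. Against MPP, 16 were called lower and 2 higher (35.5% of all genes, 20% lower and 15.5% higher), with a median of -0.44. Against HSC, 16 were called lower and 10 higher (37.8% of all genes, 20.8% lower and 17% higher), with a median of -0.32. Without the dimmest 25 percent of genes, 43.5%, 46.4% and 49.0% were called in either direction against PreMegE, MPP and HSC. The shares called lower were then 22.3%, 26.6% and 27.2%, and those called higher 21.2%, 19.9% and 21.8%. The arrays of the 2 populations did not overlap for 29 genes against HSC, 29 against MPP and 25 against PreMegE, where all genes gave 54.3%, 57.8% and 43.9%. At least 2-fold, 9 were lower and 1 higher than in PreMegE (19.4% of all genes in either direction), 8 lower and 1 higher than in MPP (22.1%), and 5 lower and 4 higher than in HSC (23.2%). The medians over all genes were -0.06 against PreMegE, -0.02 against MPP and -0.06 against HSC. The sign of the median against HSC turned with the probe set. With each gene that has several probe sets read from its next brightest one, that median was 0.20. More genes were still called lower, at 14 lower and 9 higher (15.1% and 15.7% of all genes in that setting). The 10 listed genes with a single probe set kept it there, and 9010 of all 18193 genes have more than 1. Averaging all probe sets of a gene gave -0.058. Against MPP, the next brightest probe sets gave 12 lower and 8 higher (15.6% and 14.2% of all genes) and a median of -0.057. The 3 comparisons share the CD4+ T cell arrays. With 2 such arrays, leaving one out moves the summary: without CD4+ T cell replicate 2 the median was -0.28 against MPP and -0.19 against HSC, and 5 genes were called higher than in PreMegE. In the fit, the spread assumed for this group of 2 comes mainly from the other populations.

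**Figure D3:**
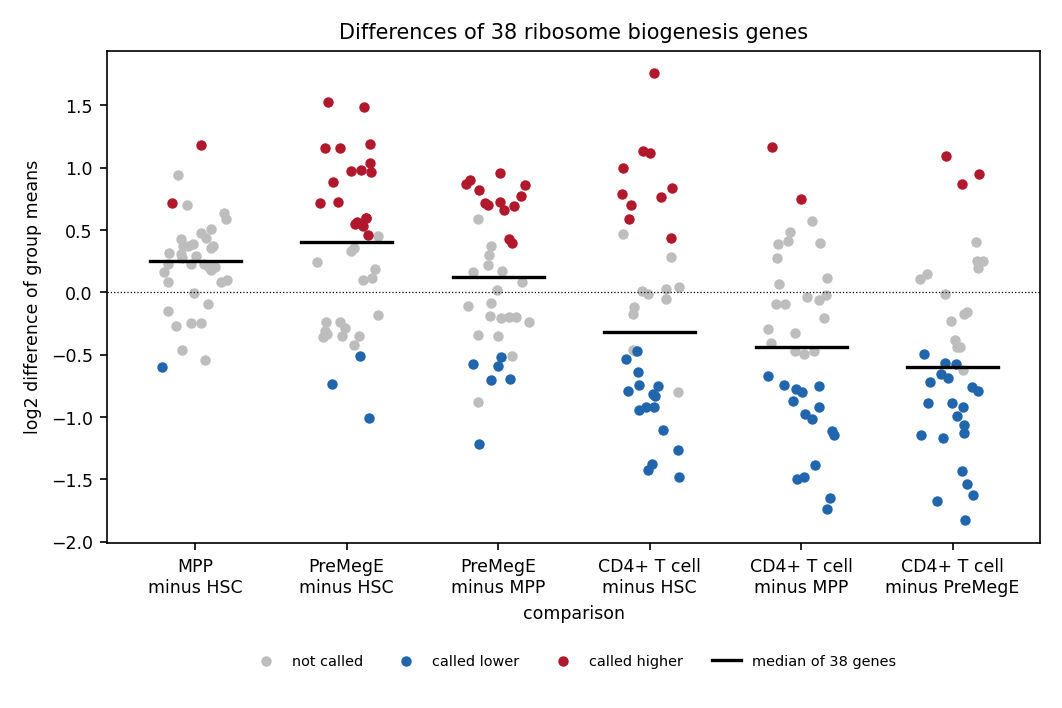
Log2 difference of group means (vertical axis) for each of the 38 genes in the 6 comparisons, with points spread sideways for legibility, coloured by whether the gene was called higher, called lower or not called, and a black line at the median. The median lies at 0.40 for PreMegE minus HSC and at -0.60 for CD4+ T cells minus PreMegE.

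The box C/D genes split between PreMegE and HSC, with 2 called higher and 1 lower (11.9% and 17% of all genes). Nop56 and Nop58 are its paired core proteins and fibrillarin (Fbl) is its methyltransferase. Nop56 read 9.42 and 9.67 in CD4+ T cells, 10.47, 10.57, 10.42 and 10.69 in PreMegE, 9.75, 9.25 and 9.92 in MPP, and 9.37, 9.37 and 9.94 in HSC. All PreMegE arrays lay above every other array. The difference was 0.98 ± 0.19 (SE, limma adjusted p = 0.000779) against HSC and 0.90 ± 0.19 (SE, limma adjusted p = 0.00126) against MPP, and CD4+ T cells minus PreMegE gave -0.99 ± 0.21 (SE, limma adjusted p = 0.0014).

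Nop58 read 7.41 and 8.60 in CD4+ T cells, 8.66, 8.98, 8.95 and 9.68 in PreMegE, 8.46, 8.24 and 8.74 in MPP, and 6.97, 7.22 and 8.43 in HSC. It was higher in PreMegE than in HSC by 1.53 ± 0.34 (SE, limma adjusted p = 0.00272), although HSC replicate 3 stood well above the other two HSC arrays. CD4+ T cells minus PreMegE gave -1.06 ± 0.38 (SE, limma adjusted p = 0.0444), a call that ended without MPP replicate 1 (adjusted p = 0.0583), MPP replicate 2 (adjusted p = 0.055), MPP replicate 3 (adjusted p = 0.0532), PreMegE replicate 2 (adjusted p = 0.067), PreMegE replicate 3 (adjusted p = 0.0547), PreMegE replicate 4 (adjusted p = 0.117) and CD4+ T cell replicate 1 (adjusted p = 0.524). Fbl went the other way in PreMegE: it read 10.08 and 10.17 in CD4+ T cells, 9.81, 9.63, 10.29 and 9.99 in PreMegE, 10.93, 11.39 and 11.12 in MPP, and 10.95, 11.09 and 10.80 in HSC. HSC and MPP arrays were all above those of CD4+ T cells and PreMegE. The difference was -1.01 ± 0.17 (SE, limma adjusted p = 0.000286) for PreMegE minus HSC, -1.22 ± 0.17 (SE, limma adjusted p = 3.87e-05) for PreMegE minus MPP, -0.82 ± 0.20 (SE, limma adjusted p = 0.00418) for CD4+ T cells minus HSC and -1.02 ± 0.20 (SE, limma adjusted p = 0.000768) for CD4+ T cells minus MPP. A second Fbl probe set gave -1.25 (adjusted p = 0.000242) for PreMegE minus HSC, and a second Nop56 probe set gave 0.94 (adjusted p = 0.00073) there and -0.48 (adjusted p = 0.0642) for CD4+ T cells minus PreMegE. P-values of further probe sets are adjusted over all probe sets here and below.

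Of the 4 box H/ACA genes, 3 were called lower in CD4+ T cells than in each marrow population (16.8% of all genes against PreMegE, 20% against MPP and 20.8% against HSC). Dkc1 encodes dyskerin, the pseudouridine synthase, which also binds telomerase RNA; Nhp2, Nop10 and Gar1 are its core partners. Dkc1 read 8.52 and 8.99 in CD4+ T cells, 10.53, 10.53, 10.71 and 10.57 in PreMegE, 10.31, 10.60 and 10.58 in MPP, and 10.05, 9.72 and 10.29 in HSC. Both CD4+ T cell arrays were below all 10 others. Its difference was -1.83 ± 0.19 (SE, limma adjusted p = 9.74e-07) for CD4+ T cells minus PreMegE, -1.74 ± 0.20 (SE, limma adjusted p = 3.1e-06) minus MPP and -1.27 ± 0.20 (SE, limma adjusted p = 7.72e-05) minus HSC. Both other Dkc1 probe sets were also called lower against PreMegE, at -1.54 (adjusted p = 4.16e-05) and -1.85 (adjusted p = 1.86e-05). Against HSC both were called lower too, at -0.71 (adjusted p = 0.0185) and -1.80 (adjusted p = 3.61e-05). Against MPP they gave -0.35 (adjusted p = 0.254) and -1.90 (adjusted p = 2.36e-05), so the first of them was not called. Dkc1 is X-linked, and HSC replicates 2 and 3 lacked Xist; PreMegE minus HSC was 0.56 ± 0.16 (SE, limma adjusted p = 0.0166) and was not called without HSC replicate 2 (adjusted p = 0.0993).

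Gar1 read 8.79 and 8.92 in CD4+ T cells, 9.84, 9.77, 10.25 and 10.10 in PreMegE, 10.32, 10.27 and 10.42 in MPP, and 9.80, 10.60 and 10.62 in HSC. Again both CD4+ T cell arrays were below all others, with differences of -1.13 ± 0.22 (SE, limma adjusted p = 0.000656) against PreMegE, -1.48 ± 0.23 (SE, limma adjusted p = 8.78e-05) against MPP and -1.48 ± 0.23 (SE, limma adjusted p = 7.84e-05) against HSC. Nhp2 read 9.91 and 10.00 in CD4+ T cells, 10.46, 10.61, 10.43 and 10.60 in PreMegE, 11.00, 11.10 and 11.20 in MPP, and 11.04, 10.83 and 10.75 in HSC, with the CD4+ T cells lowest and PreMegE below both HSC and MPP. Against MPP, CD4+ T cells gave -1.15 ± 0.16 (SE, limma adjusted p = 2.23e-05) and PreMegE -0.57 ± 0.13 (SE, limma adjusted p = 0.0027). Its other probe set gave 0.38 (adjusted p = 0.441) and 0.29 (adjusted p = 0.473) for the same pairs, on the other side of zero. Nop10 differed from its partners: it read 11.56 and 11.25 in CD4+ T cells, 12.00, 12.02, 11.57 and 11.77 in PreMegE, 11.24, 11.06 and 11.08 in MPP, and 11.58, 11.38 and 11.17 in HSC. PreMegE minus MPP was 0.71 ± 0.16 (SE, limma adjusted p = 0.00213), and no difference between CD4+ T cells and a marrow population was called, the nearest being -0.44 (adjusted p = 0.0743) against PreMegE. The other Nop10 probe set was called higher in CD4+ T cells than in HSC, at 1.08 (adjusted p = 0.00106), and than in MPP, at 0.80 (adjusted p = 0.00863).

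Among the nucleolar scaffold, chaperone and helicase genes, 3 of 4 were called higher in PreMegE than in HSC (11.9% of all genes) and 3 of 4 higher than in MPP (13.5%). The Npm1 call against MPP rests on single arrays, as given below. Nolc1 read 8.22 and 7.95 in CD4+ T cells, 8.62, 8.45, 9.06 and 8.81 in PreMegE, 8.13, 7.85 and 7.90 in MPP, and 7.31, 7.20 and 7.23 in HSC. HSC arrays were the lowest in this probe set and PreMegE arrays the highest, with 1.49 ± 0.16 (SE, limma adjusted p = 3.82e-06) for PreMegE minus HSC, 0.77 ± 0.16 (SE, limma adjusted p = 0.00119) for PreMegE minus MPP and 0.83 ± 0.19 (SE, limma adjusted p = 0.00208) for CD4+ T cells minus HSC. The other Nolc1 probe sets disagreed with each other for PreMegE minus HSC, at -1.15 (adjusted p = 0.00803) and 1.25 (adjusted p = 0.000175), and for CD4+ T cells minus HSC, at -1.94 (adjusted p = 0.000436) and 2.32 (adjusted p = 1.58e-06). Ddx21, a helicase that acts in both polymerase I transcription and rRNA processing, read 8.48 and 8.62 in CD4+ T cells, 9.23, 9.29, 9.45 and 9.24 in PreMegE, 8.26, 8.57 and 8.61 in MPP, and 8.13, 7.99 and 8.20 in HSC. Every PreMegE array was above every other array, by 1.19 ± 0.14 (SE, limma adjusted p = 8.34e-06) against HSC and 0.82 ± 0.14 (SE, limma adjusted p = 0.000213) against MPP. In CD4+ T cells it gave -0.76 ± 0.16 (SE, limma adjusted p = 0.0011) against PreMegE, but the other Ddx21 probe set gave 0.93 (adjusted p = 0.00356).

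Npm1, the abundant nucleolar chaperone nucleophosmin, ranged from 11.57 to 12.58 over the arrays and was higher in PreMegE than in HSC by 0.72 ± 0.15 (SE, limma adjusted p = 0.00142). The call against MPP, at 0.40 ± 0.15 (SE, limma adjusted p = 0.0474), ended without HSC replicate 1 (adjusted p = 0.0525), MPP replicate 1 (adjusted p = 0.0979), MPP replicate 2 (adjusted p = 0.148), MPP replicate 3 (adjusted p = 0.0959), PreMegE replicate 2 (adjusted p = 0.086), PreMegE replicate 3 (adjusted p = 0.0882), PreMegE replicate 4 (adjusted p = 0.0824), CD4+ T cell replicate 1 (adjusted p = 0.0508) and CD4+ T cell replicate 2 (adjusted p = 0.0508). The other Npm1 probe set gave 1.47 (adjusted p = 3.54e-05) against HSC and 0.77 (adjusted p = 0.00379) against MPP, and was called higher in CD4+ T cells than in HSC, at 1.74 (adjusted p = 1.66e-05). Ncl, nucleolin, was one of 2 genes called in none of the 6 comparisons in the brightest probe set. There it read 11.05 and 11.42 in CD4+ T cells, 10.85, 11.19, 11.48 and 12.09 in PreMegE, 11.56, 11.64 and 11.72 in MPP, and 10.87, 11.30 and 11.68 in HSC. The PreMegE arrays alone ran from 10.85 to 12.09, a wider range than the distance between any 2 population means. Ncl has 4 other probe sets, of which at least 1 was called in each comparison, and they disagreed. They gave 0.41 (adjusted p = 0.216), -1.02 (adjusted p = 0.0108), 1.51 (adjusted p = 0.000332) and -0.16 (adjusted p = 0.637) for CD4+ T cells minus HSC. The values for PreMegE minus HSC were 0.55 (adjusted p = 0.0599), 0.68 (adjusted p = 0.0495), 1.31 (adjusted p = 0.000462) and 0.07 (adjusted p = 0.826).

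The RNA polymerase I genes did not move together. Polr1b, the second-largest catalytic subunit, read 6.47 and 6.58 in CD4+ T cells, 7.05, 7.49, 8.23 and 7.88 in PreMegE, 8.20, 7.88 and 8.44 in MPP, and 8.01, 7.71 and 8.13 in HSC. Both CD4+ T cell arrays were below all others, with differences of -1.14 ± 0.26 (SE, limma adjusted p = 0.00269) against PreMegE, -1.65 ± 0.28 (SE, limma adjusted p = 0.000171) against MPP and -1.43 ± 0.28 (SE, limma adjusted p = 0.000597) against HSC. Tcof1, which encodes treacle, a cofactor that recruits the polymerase to ribosomal DNA, did the reverse. It read 8.28 and 8.26 in CD4+ T cells, 7.45, 7.19, 7.67 and 7.29 in PreMegE, 7.23, 6.88 and 7.19 in MPP, and 6.91, 6.39 and 6.23 in HSC, with the CD4+ T cells highest. The rise in CD4+ T cells was 0.87 ± 0.20 (SE, limma adjusted p = 0.00275) against PreMegE, 1.17 ± 0.21 (SE, limma adjusted p = 0.000353) against MPP and 1.76 ± 0.21 (SE, limma adjusted p = 5.86e-06) against HSC. Both other Tcof1 probe sets were also called higher in CD4+ T cells than in HSC, at 1.69 (adjusted p = 3.77e-06) and 1.21 (adjusted p = 0.000182); against PreMegE they gave 0.05 (adjusted p = 0.867) and 0.41 (adjusted p = 0.116).

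Mybbp1a, a nucleolar protein that binds MYB and restrains polymerase I, had one of the tightest patterns and read 9.10 and 9.13 in CD4+ T cells, 10.56, 10.59, 10.55 and 10.51 in PreMegE, 9.91, 9.78 and 9.98 in MPP, and 9.61, 9.49 and 9.65 in HSC. The 4 populations did not overlap, with PreMegE highest and CD4+ T cells lowest. The difference was -1.44 ± 0.14 (SE, limma adjusted p = 5.02e-07) for CD4+ T cells minus PreMegE and 0.97 ± 0.12 (SE, limma adjusted p = 2.01e-05) for PreMegE minus HSC. The second, dimmer Mybbp1a probe set gave 0.36 (adjusted p = 0.499) and -0.19 (adjusted p = 0.729), and for PreMegE minus MPP the 2 probe sets were called in opposite directions, at 0.66 and -0.95 (adjusted p = 0.0238). Ubtf, which encodes the ribosomal DNA architectural factor UBF, read 9.25 and 8.66 in CD4+ T cells, 8.66, 8.43, 8.80 and 8.34 in PreMegE, 9.28, 9.24 and 9.23 in MPP, and 9.21, 9.08 and 8.92 in HSC. PreMegE minus MPP was -0.70 ± 0.16 (SE, limma adjusted p = 0.00351). The other Ubtf probe set was called in the opposite direction, at 3.26 (adjusted p = 6.62e-07) for that pair and 2.84 (adjusted p = 3.95e-06) for PreMegE minus HSC, so the 2 probe sets give no single direction for the gene. Polr1a, the largest subunit, and Polr1c, a subunit shared with polymerase III, ranged from 7.10 to 8.07 and from 9.44 to 10.48 over the arrays. Polr1c was called lower in CD4+ T cells than in HSC, with a difference of -0.75 ± 0.20 (SE, limma adjusted p = 0.00826), but not without CD4+ T cell replicate 1 (adjusted p = 0.119). Its other probe set gave 0.29 (adjusted p = 0.25). Polr1a was called lower in CD4+ T cells than in MPP, at -0.75 (adjusted p = 0.0114), but its next brightest probe set was called higher, at 1.27 (adjusted p = 0.00743).

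For the 9 small subunit genes, 5 were called lower and 3 higher in CD4+ T cells than in HSC, against 20.8% and 17% of all genes. Noc4l, a component of the small subunit precursor, read 8.46 and 8.04 in CD4+ T cells, 9.09, 9.02, 9.34 and 8.73 in PreMegE, 9.75, 9.51 and 9.64 in MPP, and 9.36, 9.08 and 9.62 in HSC. Both CD4+ T cell arrays were below all others, with -1.38 ± 0.21 (SE, limma adjusted p = 6.92e-05) against MPP and -1.10 ± 0.21 (SE, limma adjusted p = 0.000519) against HSC. Of the 3 other Noc4l probe sets, 1 was called lower in both comparisons. The rest were called in none with CD4+ T cells, at -0.23 (adjusted p = 0.396) and -0.45 (adjusted p = 0.0532) against MPP and 0.10 (adjusted p = 0.731) and -0.16 (adjusted p = 0.55) against HSC. Wdr43, of the complex that joins polymerase I transcription to early processing, read 8.06 and 7.95 in CD4+ T cells, 9.16, 9.10, 9.39 and 9.06 in PreMegE, 8.86, 8.79 and 8.60 in MPP, and 8.73, 8.85 and 8.95 in HSC. CD4+ T cells were lowest and PreMegE highest, with -1.17 ± 0.15 (SE, limma adjusted p = 1.6e-05) for CD4+ T cells minus PreMegE. The other Wdr43 probe set gave -0.30 (adjusted p = 0.388) there. CD4+ T cells lay on the other side of zero in it against MPP, at 0.46 (adjusted p = 0.17), and HSC, at 0.51 (adjusted p = 0.127). Wdr75, of the same complex, had another pattern and read 8.78 and 8.66 in CD4+ T cells, 8.53, 8.96, 8.94 and 9.07 in PreMegE, 8.21, 8.12 and 8.12 in MPP, and 7.47, 7.49 and 8.19 in HSC. HSC replicate 3 reached the MPP level, and CD4+ T cells were above every MPP array. The difference was 1.16 ± 0.18 (SE, limma adjusted p = 0.000178) for PreMegE minus HSC and 1.00 ± 0.22 (SE, limma adjusted p = 0.00165) for CD4+ T cells minus HSC. The other Wdr75 probe set gave -0.01 (adjusted p = 0.991) and 0.50 (adjusted p = 0.101). Heatr1, the largest component of that complex, read 8.45 and 8.21 in CD4+ T cells, 8.29, 8.10, 8.72 and 8.24 in PreMegE, 8.50, 8.55 and 8.56 in MPP, and 9.16, 9.17 and 8.90 in HSC, highest in HSC. PreMegE minus HSC was -0.74 ± 0.16 (SE, limma adjusted p = 0.00205). For CD4+ T cells minus HSC it was -0.75 ± 0.19 (SE, limma adjusted p = 0.00462), not called without CD4+ T cell replicate 2 (adjusted p = 0.058). The other Heatr1 probe sets gave -0.66 (adjusted p = 0.162) and 0.52 (adjusted p = 0.26) for PreMegE minus HSC. In CD4+ T cells minus HSC they were called in opposite directions, at -1.63 (adjusted p = 0.00364) and 0.99 (adjusted p = 0.0484).

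Utp20 read 8.58 and 8.18 in CD4+ T cells, 8.50, 8.90, 9.04 and 9.06 in PreMegE, 8.69, 8.72 and 8.70 in MPP, and 9.31, 9.23 and 9.37 in HSC, with all HSC arrays above all others. Against HSC, CD4+ T cells gave -0.92 ± 0.19 (SE, limma adjusted p = 0.000916). Pno1 was low in HSC alone: it read 8.16 and 7.62 in CD4+ T cells, 7.07, 7.86, 7.94 and 8.10 in PreMegE, 8.10, 7.83 and 7.91 in MPP, and 6.78, 6.33 and 7.19 in HSC. Besides the rise in MPP given above, CD4+ T cells minus HSC was 1.12 ± 0.29 (SE, limma adjusted p = 0.00596), not called without CD4+ T cell replicate 1 (adjusted p = 0.0893), and PreMegE minus HSC was 0.97 ± 0.24 (SE, limma adjusted p = 0.00652), with PreMegE replicate 1 inside the HSC range. Rrp9, a protein of the U3 snoRNP that guides early cleavage, read 7.48 and 7.79 in CD4+ T cells, 7.45, 7.24, 7.53 and 7.32 in PreMegE, 7.28, 7.27 and 7.12 in MPP, and 7.02, 6.82 and 6.70 in HSC. HSC arrays were the lowest, and CD4+ T cells minus HSC was 0.79 ± 0.17 (SE, limma adjusted p = 0.0014). Rcl1, an early cleavage factor, ranged from 7.94 to 8.26 on the 10 marrow arrays and was 7.19 and 7.26 in CD4+ T cells; CD4+ T cells minus PreMegE was -0.89 ± 0.15 (SE, limma adjusted p = 0.000152). Nop14, the other gene called in no comparison, read 7.37 and 6.26 in CD4+ T cells, 6.31, 6.42, 6.72 and 6.80 in PreMegE, 6.75, 7.11 and 6.86 in MPP, and 6.74, 6.85 and 6.82 in HSC; its 2 CD4+ T cell arrays were further apart than any 2 marrow arrays.

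Among the 12 large subunit genes, 6 were called higher in PreMegE than in HSC and none lower, against 11.9% and 17% of all genes, and 8 were called lower in CD4+ T cells than in PreMegE, against 16.8% of all genes. Bop1, Pes1 and Wdr12 form one complex, which acts in the maturation of large subunit rRNA, yet the 3 differed. Wdr12 read 7.79 and 7.92 in CD4+ T cells, 9.40, 9.54, 9.39 and 9.79 in PreMegE, 8.71, 8.51 and 8.76 in MPP, and 8.44, 8.39 and 8.64 in HSC. PreMegE were highest and CD4+ T cells lowest with no overlap, and CD4+ T cells minus PreMegE was -1.67 ± 0.16 (SE, limma adjusted p = 5.48e-07). Pes1 read 8.60 and 9.18 in CD4+ T cells, 7.40, 7.78, 8.18 and 7.82 in PreMegE, 8.57, 8.50 and 8.42 in MPP, and 8.23, 8.14 and 8.001 in HSC. It was highest in CD4+ T cells, with 1.10 ± 0.21 (SE, limma adjusted p = 0.000555) for CD4+ T cells minus PreMegE and -0.70 ± 0.18 (SE, limma adjusted p = 0.00746) for PreMegE minus MPP. Bop1 read 8.50 and 8.36 in CD4+ T cells, 7.27, 7.17, 7.96 and 7.54 in PreMegE, 7.82, 7.50 and 7.72 in MPP, and 7.39, 7.21 and 7.28 in HSC. CD4+ T cells were above all other arrays, by 0.95 ± 0.20 (SE, limma adjusted p = 0.00141) against PreMegE, 0.75 ± 0.21 (SE, limma adjusted p = 0.0102) against MPP and 1.14 ± 0.21 (SE, limma adjusted p = 0.000414) against HSC; the call against MPP ended without CD4+ T cell replicate 1 (adjusted p = 0.0729).

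The other probe sets bear on all 3. The dimmer Pes1 probe set was called in the same direction for CD4+ T cells minus PreMegE, at 0.65 (adjusted p = 0.0326), but in the opposite one for CD4+ T cells minus HSC, at -0.64 (adjusted p = 0.0383) against 0.77. The second Bop1 probe set was called in no comparison, at -0.42 (adjusted p = 0.5) for CD4+ T cells minus PreMegE. The second Wdr12 probe set gave -1.86 (adjusted p = 0.00429) for the same pair, and the third -0.05 (adjusted p = 0.881).

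Gnl3, which encodes nucleostemin, a nucleolar GTPase known from stem cells, read 8.62 and 8.93 in CD4+ T cells, 10.26, 10.46, 10.45 and 10.44 in PreMegE, 9.63, 9.72 and 9.75 in MPP, and 10.07, 10.02 and 10.38 in HSC. CD4+ T cells were lowest. The mean was highest in PreMegE, but PreMegE minus HSC was 0.25 and not called, and the arrays of the pair overlapped. CD4+ T cells minus PreMegE was -1.63 ± 0.16 (SE, limma adjusted p = 5.97e-07), CD4+ T cells minus HSC -1.38 ± 0.17 (SE, limma adjusted p = 6.13e-06) and PreMegE minus MPP 0.70 ± 0.14 (SE, limma adjusted p = 0.000939). Rrs1, which helps load the 5S particle, read 9.69 and 9.66 in CD4+ T cells, 11.30, 11.16, 11.37 and 11.02 in PreMegE, 10.51, 10.31 and 10.22 in MPP, and 10.45, 10.65 and 10.76 in HSC. PreMegE arrays were all above and CD4+ T cell arrays all below the rest, with -1.54 ± 0.16 (SE, limma adjusted p = 1.21e-06) for CD4+ T cells minus PreMegE, 0.86 ± 0.14 (SE, limma adjusted p = 0.000167) for PreMegE minus MPP and -0.94 ± 0.17 (SE, limma adjusted p = 0.000284) for CD4+ T cells minus HSC. The other Rrs1 probe set was called lower in CD4+ T cells in the same comparisons, at -0.98 (adjusted p = 0.000445) against PreMegE and -0.77 (adjusted p = 0.00342) against HSC. It gave 0.07 (adjusted p = 0.787) for PreMegE minus MPP and 0.20 (adjusted p = 0.396) for PreMegE minus HSC, and neither was called. In the brightest one PreMegE minus HSC was called, at 0.59. Noc2l read 8.31 and 8.07 in CD4+ T cells, 8.64, 8.73, 8.95 and 8.72 in PreMegE, 7.87, 7.48 and 8.06 in MPP, and 7.79, 7.63 and 7.38 in HSC, highest in PreMegE, with 1.16 ± 0.16 (SE, limma adjusted p = 5.81e-05) for PreMegE minus HSC and 0.96 ± 0.16 (SE, limma adjusted p = 0.000256) for PreMegE minus MPP. Its other probe set was called lower in PreMegE than in HSC, at -0.85 (adjusted p = 0.0174). Its partner Noc3l read 6.88 and 4.38 in CD4+ T cells, 5.75, 6.19, 6.24 and 6.84 in PreMegE, 7.06, 6.95 and 7.39 in MPP, and 6.12, 6.58 and 6.61 in HSC. The CD4+ T cell arrays were far apart. CD4+ T cells minus MPP was -1.50 ± 0.49 (SE, limma adjusted p = 0.0252), and the call ended without MPP replicate 1 (adjusted p = 0.0509), MPP replicate 3 (adjusted p = 0.0766) and CD4+ T cell replicate 2 (adjusted p = 0.682). The other Noc3l probe set gave -0.05 (adjusted p = 0.949).

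Ebna1bp2, an early large subunit factor, read 8.48 and 8.89 in CD4+ T cells, 8.29, 8.56, 8.51 and 8.95 in PreMegE, 8.22, 8.14 and 8.25 in MPP, and 8.13, 7.83 and 7.99 in HSC and was higher in PreMegE than in HSC by 0.60 ± 0.17 (SE, limma adjusted p = 0.0122), not without HSC replicate 2 (adjusted p = 0.0582), and gave 0.28 (adjusted p = 0.202) and -0.09 (adjusted p = 0.725) in its other probe sets. Nop2, an rRNA methyltransferase, ranged from 7.71 to 7.89 in PreMegE and from 7.00 to 7.26 on the other 8 arrays; PreMegE minus MPP was 0.70 ± 0.12 (SE, limma adjusted p = 0.000371). Nop16 ranged from 6.47 to 7.70, with CD4+ T cells minus MPP at -0.98 ± 0.18 (SE, limma adjusted p = 0.000352). Rrp1b ranged from 7.35 to 8.92, and CD4+ T cells minus MPP was -1.11 ± 0.23 (SE, limma adjusted p = 0.0012), against 0.88 (adjusted p = 0.00705) in its next probe set. Nip7, grouped here under large subunit assembly, ranged from 8.18 to 9.53. It was higher in PreMegE than in HSC by 0.73 ± 0.21 (SE, limma adjusted p = 0.0137). The call ended without HSC replicate 1 (adjusted p = 0.0521) and HSC replicate 2 (adjusted p = 0.0681). Its other probe set gave 0.41 (adjusted p = 0.268).

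**Figure D4:**
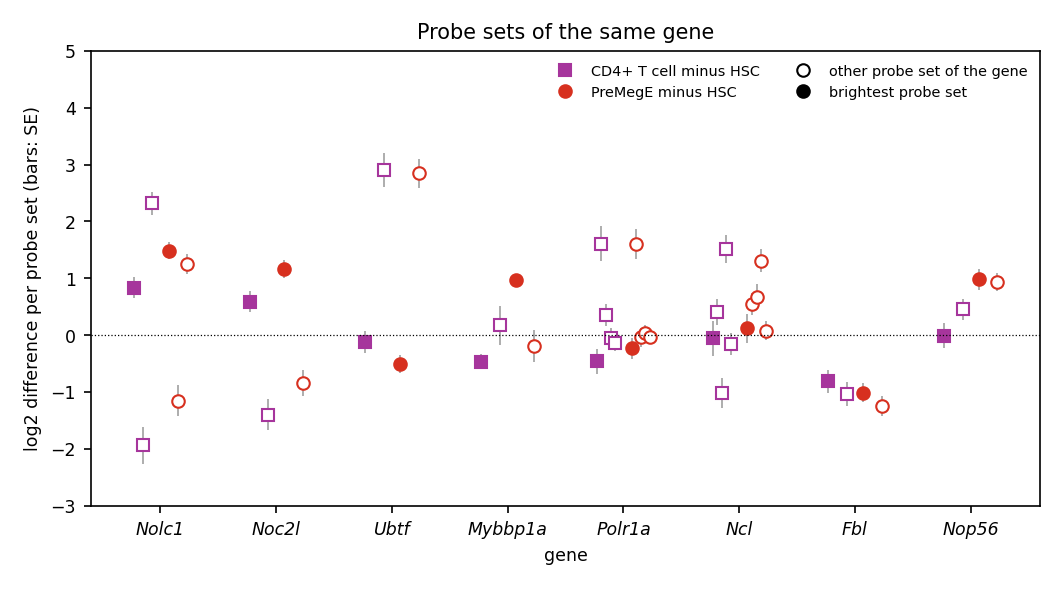
Log2 difference (vertical axis, bars are SE) of every probe set of 8 genes, for CD4+ T cells minus HSC (squares) and PreMegE minus HSC (circles). Filled symbols are the brightest probe set and open ones the others. Those of Fbl lie close together, and those of Ubtf lie at -0.51 and 2.84 for PreMegE minus HSC.

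The choice of probe set set the direction for part of the list. The 38 genes have 81 probe sets, 28 genes have more than 1 and 10 have a single one. Among the 28, another probe set was called in the opposite direction for 4 genes in CD4+ T cells against HSC (Heatr1, Noc2l, Nolc1 and Pes1), 2 against MPP (Polr1a and Rrp1b) and 2 against PreMegE (Ddx21 and Nolc1). The number was 3 for PreMegE against HSC (Noc2l, Nolc1 and Ubtf), 3 for PreMegE against MPP (Mybbp1a, Polr1a and Ubtf) and 0 for MPP against HSC. In 14 to 18 of the 28 genes one probe set was called and another was not, in each comparison except MPP against HSC, where this held for 3. Of the 17 genes called between PreMegE and HSC that have several probe sets, 8 had another one called the same way and no probe set called the opposite way. In CD4+ T cells against PreMegE this held for 5 of 16. Reading the 28 genes with several probe sets from the next brightest one left the 10 others unchanged. PreMegE minus HSC then had 16 genes higher and 5 lower (9.44% and 12.3% of all genes in that setting). CD4+ T cells minus PreMegE had 11 lower (12.0% of all genes) in place of 21 and a median of -0.42. Which probe set reads the transcript best was not tested.

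Genes of the same pathway outside the list gave a partly different picture. In 114 further biogenesis genes (12 of RNA polymerase I, 42 of the small subunit, 45 of the large subunit and 15 of the exosome and rRNA trimming), PreMegE against HSC had 38 higher and 18 lower (11.9% and 17% of all genes) with a median of 0.26, the same direction as in the 38. For CD4+ T cells against HSC, 40 (35.1%) were higher and 18 (15.8%) lower, where all genes gave 17% and 20.8%, with a median of 0.26, of the opposite sign to that of the 38 in the brightest probe sets. CD4+ T cells against PreMegE gave 18 higher (15.8%) and 26 lower (22.8%) with a median of -0.03, where all genes gave 16.3% and 16.8%. The share called higher lay near that of all genes. The large subunit factors Nsa2 and Las1l were 2.27 and 2.08 higher in PreMegE than in HSC, and 2.38 and 2.19 higher in CD4+ T cells than in HSC. The small subunit kinase Riok2 was 1.94 higher in PreMegE than in HSC and gave -1.42 for CD4+ T cells minus PreMegE. Krr1, of the small subunit precursor, was lower in CD4+ T cells than in each marrow population, at -1.18 against PreMegE, -1.33 against MPP and -1.47 against HSC. Of the 12 further polymerase I genes, Taf1d fell in CD4+ T cells by the same 3 comparisons, at -1.10, -1.55 and -1.93, while Taf1c, another subunit of the promoter selectivity factor, rose, at 0.68, 1.41 and 1.25.

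The end products of the pathway that could be read did not follow the brightest probe sets of the 38 genes in T cells. A longer list of cytosolic ribosomal protein genes was set, and only 44 had a probe set naming them alone. Not all of the 44 read brightly: Rps16 had population means of 2.50 to 2.89 and Rps27 of 3.85 to 5.15. Of the 44, 23 (52.3%) were higher and 3 (6.82%) lower in CD4+ T cells than in HSC, with a median of 0.41, where all genes gave 17% and 20.8%. Against MPP, 19 (43.2%) were higher and 4 (9.09%) lower, with a median of 0.36, where all genes gave 15.5% and 20%. Against PreMegE, 7 (15.9%) were higher, near the 16.3% of all genes, and 4 lower (9.09%, against 16.8%), with a median of 0.09. PreMegE against HSC had 20 higher (45.5%, against 11.9% of all genes) and 2 lower (4.55%, against 17%), with a median of 0.31. Rps15 gave 2.76 for CD4+ T cells minus HSC and 1.75 for PreMegE minus HSC. Near-identical pseudogene copies of ribosomal protein genes could share such probe sets.

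Of 11 MYC network genes, Myc itself was highest in PreMegE, with means of 7.54 in CD4+ T cells, 9.58 in PreMegE, 8.14 in MPP and 8.72 in HSC. PreMegE minus HSC was 0.87 (adjusted p = 0.000741), PreMegE minus MPP 1.44 (adjusted p = 4.66e-06), CD4+ T cells minus PreMegE -2.04 (adjusted p = 2.42e-07) and MPP minus HSC -0.57 (adjusted p = 0.0449). Mycn was 4.75 in CD4+ T cells, 9.12 in PreMegE, 8.16 in MPP and 10.77 in HSC, highest in HSC. Eif4ebp1, which holds back cap-dependent translation until the kinase mTOR releases it, gave 1.33 (adjusted p = 0.000201) for PreMegE minus HSC and -3.09 (adjusted p = 4.52e-08) for CD4+ T cells minus PreMegE. Of the 8 growth signalling genes read, none was called between MPP and HSC.

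**Figure D5:**
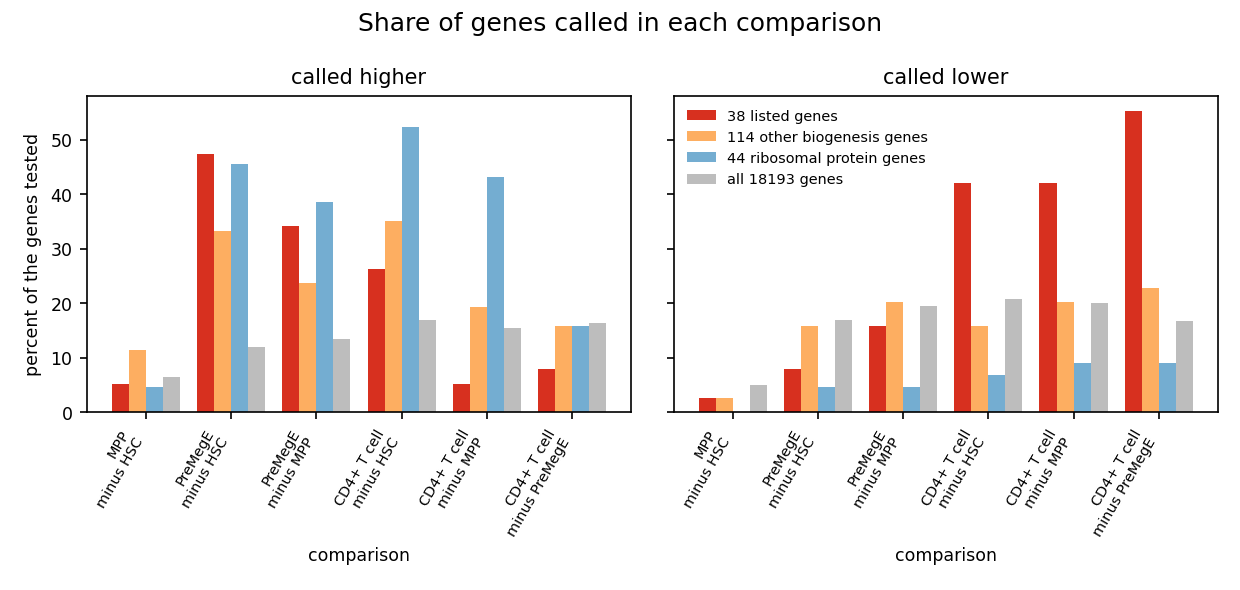
Percent of genes called higher (left) and lower (right) in each comparison, for the 38 listed genes, 114 other biogenesis genes, 44 ribosomal protein genes and all 18193 genes. For CD4+ T cells minus HSC, 42.1% of the listed genes were called lower, against 15.8% of the other biogenesis genes and 20.8% of all genes.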

How the data were processed

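Each array file holds an RMA intensity for each of 45101 probe sets, as deposited by the authors; RMA is named in the submitters' processing notes without a version, and the set of arrays it was run on is not given in the sources used here. The deposited intensity is on a linear scale, and log2 of the deposited value was used with no further normalisation or filter. Control probe sets (64) were left out. Names came from the platform annotation, where 34945 probe sets have a single symbol, and 18193 genes were read from their brightest one.

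Tests used limma (version 3.58.1, R 4.3.3, files read with the package data.table, version 1.17.8): 1 lmFit model with a mean for each of the 4 populations over 12 arrays, eBayes, two-sided, Benjamini-Hochberg adjustment over all genes, called under 0.05. Tests were tried on simulated data. P-values of further probe sets are adjusted over all probe sets. No set test was made.

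Array values are given for up to 6 called genes with the largest rise and 6 with the largest fall per comparison whose arrays do not overlap, and for the largest and smallest difference of each role; other genes are given by range. Genes of a pathway list that no probe set names alone were left out. Of each pathway list, the genes named for their differences are among the 3 largest rises and falls. Myc, Mycn and Eif4ebp1 were named after their values were seen. The genes and lists were chosen with earlier results of these data known.

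Alternatives were another normalisation, filter, probe set, variance prior or set of arrays, the replicate number as a block, PreMegE replicates 3 and 4 averaged (the description of the fourth gives the number 3), and each array left out.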

Additional observations from a re-analysis of the deposited data

Results flagged for a closer look

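Among the 38 genes, the 4 PreMegE arrays were examined for a single array far from the rest, and 2 genes had one. Chance gives such an array in about 1 in 20 groups. Rrp1b read 8.31, 8.28, 8.85 and 8.35 in PreMegE, and the gap of the highest array to its nearest neighbour was 0.883 of the whole range. Gnl3 read 10.26, 10.46, 10.45 and 10.44, and the gap of the lowest array was 0.864 of the range. The array with the high Rrp1b value is PreMegE replicate 3 and that with the low Gnl3 value is PreMegE replicate 1.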

How the results depend on the processing

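Over the 6 comparisons, 111 differences of single genes were called. Of these, 79 were called in the same direction whichever single array was left out, and 73 under every alternative other than the choice of probe set. The calls that ended when an array was left out are not all named above. Under all alternatives run, 42 were called in the same direction. Not all of the 42 were read from a second probe set, because 10 genes have a single one. Quantile normalization, cyclic loess, leaving out the dimmest 25 percent of genes, an intensity trend in eBayes, fitting only the populations compared, and averaging PreMegE replicates 3 and 4 turned no called difference round and ended 1 to 8 of the calls each.

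The choice of probe set had the widest effect. With the next brightest one, 59 of the 111 calls stayed, 22 lost significance and 30 changed sign. The 10 genes with a single probe set kept it in this setting, so their differences could not change. The calls that stayed include calls of these genes. The log2 differences that changed sign were, for MPP minus HSC, Nolc1 -0.46. For PreMegE minus HSC they were Nolc1 -1.15, Ubtf 2.84, Mybbp1a -0.19, Wdr75 -0.0052 and Noc2l -0.85, and for PreMegE minus MPP Nhp2 0.29, Nolc1 -0.69, Polr1a 1.25, Ubtf 3.26, Mybbp1a -0.95 and Noc2l -0.50. For CD4+ T cells minus HSC they were Nhp2 0.62, Nolc1 -1.94, Polr1c 0.29, Mybbp1a 0.17, Wdr43 0.51, Pes1 -0.64, Wdr12 0.53, Noc2l -1.40 and Ebna1bp2 -0.065. For CD4+ T cells minus MPP they were Nhp2 0.38, Polr1a 1.27, Wdr43 0.46, Wdr12 0.32 and Rrp1b 0.88, and for CD4+ T cells minus PreMegE Nhp2 0.086, Ddx21 0.93, Mybbp1a 0.36 and Bop1 -0.42. With the mean of all probe sets, 7 changed sign: Ubtf 1.16 for PreMegE minus HSC, Polr1a 0.028, Ubtf 1.28 and Mybbp1a -0.14 for PreMegE minus MPP, Noc2l -0.41 for CD4+ T cells minus HSC, Polr1a 0.028 for CD4+ T cells minus MPP and Ddx21 0.087 for CD4+ T cells minus PreMegE. The cause was not tested.

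Counts and medians over the 38 genes moved as follows. With the next brightest probe set, 5 genes were lower in PreMegE than in HSC, 8 were higher in CD4+ T cells than in MPP and 11 were lower in CD4+ T cells than in PreMegE. Its medians were 0.32 for PreMegE minus MPP, and for CD4+ T cells 0.20 minus HSC, -0.057 minus MPP and -0.42 minus PreMegE. With the mean of all probe sets, 2 genes were lower in MPP than in HSC, 10 were lower in CD4+ T cells than in HSC and 7 were higher than in MPP, with medians of -0.058 for CD4+ T cells minus HSC and -0.41 minus PreMegE. Cyclic loess gave 6 genes higher in CD4+ T cells than in MPP, with a median of -0.25. For MPP against HSC, where 2 genes were higher and 1 lower, the lower count was 3 with quantile normalization, 3 with cyclic loess, and 2 with the intensity trend or with only those populations in the fit. Averaging PreMegE replicates 3 and 4 gave 4 higher and 2 lower there. With HSC replicate 1 as the only HSC array, 0 were called higher and 0 lower in MPP, 10 were higher in PreMegE than in HSC and 5 were higher in CD4+ T cells than in HSC. That setting has fewer arrays.

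The labels do not say that replicate numbers pair the samples. Deviations of arrays with the same number correlated between -0.12 and 0.41, the highest for replicate 3 of PreMegE and HSC. Arrays with different numbers were not compared in this way, so these values cannot decide whether the numbers pair arrays. With the replicate number as a block, 7 of the 111 calls lost significance, 4 genes were higher in MPP than in HSC, and the median for CD4+ T cells minus MPP was -0.29.

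Leaving out each array in turn gave these ranges. MPP minus HSC had 1 to 5 genes higher, 0 to 2 lower and medians of 0.22 to 0.35. PreMegE minus HSC had 14 to 18 higher, 2 to 4 lower and medians of 0.36 to 0.42. PreMegE minus MPP had 11 to 14 higher, 4 to 7 lower and medians of 0.08 to 0.16. CD4+ T cells minus HSC had 7 to 10 higher, 13 to 16 lower and medians of -0.45 to -0.19. CD4+ T cells minus MPP had 2 to 3 higher, 15 to 17 lower and medians of -0.56 to -0.28. CD4+ T cells minus PreMegE had 3 to 5 higher, 15 to 22 lower and medians of -0.69 to -0.52. Where CD4+ T cells have a single array left, it is assumed to vary like the other groups.

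The number of arrays, above all the 2 of CD4+ T cells, limits the precision. Study, the actin control of RNA quality and population move together for PreMegE and CD4+ T cells and cannot be told apart. The GAPDH control set CD4+ T cells apart, while its PreMegE range overlapped those of HSC and MPP.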
